A study of Mus musculus with 6 samples.

Results

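The genes described here are the 8 members of the NR4A and EGR families and of the NAB pair that answer T cell receptor (TCR) signalling: Nr4a1, Nr4a2, Nr4a3, Egr1, Egr2, Egr3, Nab1 and Nab2. They were taken by symbol from the deposited expression table, and are 8 of its 24011 genes, with 12 RefSeq transcripts among them. All 8 passed the filter on low values. The libraries hold total RNA of CD4 T cells that were sorted from spleens and lymph nodes of C57BL/6 mice. The 6 groups had 1 library each: stimulated natural regulatory T cells (nTregs), fresh nTregs and naive CD4 T cells, each from YAP cKO mice and from wild type (WT) mice. YAP cKO mice are YAP flox/flox and CD4-Cre+, so that Cre driven by the CD4 promoter deletes the co-activator YAP in T cells at large, CD8 T cells included. The labels do not say whether WT mice carried Cre or the floxed allele, how old the mice were, or how many mice stand behind a library. Naive cells were sorted as CD4+ CD62L+ CD25-, and nTregs as CD4+ CD25 high with or without CD62L. Stimulated nTregs were cultured with plate-bound anti-CD3 and soluble anti-CD28, each at 2 µg/ml, together with 100 U/ml of IL-2. The labels disagree on the length of this culture, with 24 h in the treatment text and 48 h in the extraction text. There was no culture without stimulation, so culture, IL-2 and receptor stimulation cannot be told apart.

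NR4A proteins are orphan nuclear receptors whose genes are switched on within minutes to hours of TCR signalling, and Nr4a1 is widely used as a reporter of it. In mice, NR4A receptors are needed for the development of Tregs and help to maintain Foxp3 expression. EGR proteins are zinc finger transcription factors induced through the MAP kinase and calcium arms of TCR signalling. Mouse Egr2 and Egr3 are known for restraining T cell activation, and the NAB proteins bind EGR factors and repress their activity.

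The promoters of the NR4A genes and of Egr2 are shown first. These genes were picked with their expression values known, and no link between promoter letters and expression was tested. The promoters come from the RefSeq promoter table (GRCm38.p6), which held 6 of the 8 members and not Egr1 or Egr3. Each window is the 250 bases before the table's transcription start, written 5′ to 3′ on the gene's own strand. Capitals mark matches to 3 motifs, searched on both strands: the cyclic AMP response element (CRE) half-site TGACG, with its reverse complement CGTCA, the EGR motif GCGNGGGCG, and the CArG box bound by serum response factor. No match to one motif overlapped a match to another in the windows shown. They lie at chr15:101266596-101266845 on the plus strand for Nr4a1, chr2:57124004-57124253 on the minus strand for Nr4a2, chr4:48045055-48045304 on the plus strand for Nr4a3, and chr10:67537619-67537868 on the plus strand for Egr2.
Nr4a1: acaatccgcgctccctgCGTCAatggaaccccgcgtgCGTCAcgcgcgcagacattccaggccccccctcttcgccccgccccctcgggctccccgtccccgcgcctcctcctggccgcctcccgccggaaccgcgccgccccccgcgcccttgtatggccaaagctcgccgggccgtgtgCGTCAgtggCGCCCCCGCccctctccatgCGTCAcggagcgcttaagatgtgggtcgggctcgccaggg
Nr4a2: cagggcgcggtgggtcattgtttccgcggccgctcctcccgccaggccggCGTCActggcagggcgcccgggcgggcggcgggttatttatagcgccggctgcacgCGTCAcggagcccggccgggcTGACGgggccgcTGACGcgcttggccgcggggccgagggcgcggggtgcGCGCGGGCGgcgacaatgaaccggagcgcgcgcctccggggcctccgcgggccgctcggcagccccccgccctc
Nr4a3: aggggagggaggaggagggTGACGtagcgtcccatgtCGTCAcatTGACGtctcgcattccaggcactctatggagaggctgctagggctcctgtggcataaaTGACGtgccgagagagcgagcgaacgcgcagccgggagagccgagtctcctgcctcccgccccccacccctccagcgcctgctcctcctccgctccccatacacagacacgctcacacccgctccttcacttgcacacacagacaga
Egr2: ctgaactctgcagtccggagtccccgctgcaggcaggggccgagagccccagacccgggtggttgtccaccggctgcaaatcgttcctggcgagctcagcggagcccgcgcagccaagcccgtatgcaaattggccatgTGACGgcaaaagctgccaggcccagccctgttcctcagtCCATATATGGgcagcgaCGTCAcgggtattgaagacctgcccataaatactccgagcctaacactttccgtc

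Each NR4A window held 4 CRE half-sites, whereas 0.137% of the 32851 promoter windows in the table held at least 4. In the Nr4a1 window they began 233, 213, 69 and 40 bases before the start. In the Nr4a2 window they began 200, 144, 123 and 111 bases before it, and in the Nr4a3 window 231, 213, 205 and 147 bases before it. The Nr4a1 and Nr4a2 windows also held 1 EGR motif each, a motif found in 4.70% of all windows. The Egr2 window held 2 CRE half-sites, a number reached by 3.90% of all windows, and a CArG box 72 bases before the start, which 1.47% of all windows held. Of the NAB pair, the Nab1 window held 1 CRE half-site and 3 EGR motifs, and 0.140% of all windows held at least 3 EGR motifs. The Nab2 window held none of these letters. The table's start lay 152 bases from the start of the deposited transcript in GENCODE for Nr4a3, 231 bases for Nab1 and 71 bases for Nab2, and Egr2 has 5 starts in the table, of which the one matching the deposited transcript is shown. GC content differs among the windows, at 74.4% for Nr4a1, 80% for Nr4a2, 63.6% for Nr4a3, 61.6% for Egr2, 80.8% for Nab1 and 72.8% for Nab2, and its part in these counts was not tested. The windows of Nr4a1, Egr2 and Nab1 (chr1:52500449-52500698) lie inside the gene spans given below. That of Nr4a3 begins before its gene span and ends inside it. Letters in these windows are therefore not all upstream of the gene. A match describes letters in a window and was not tested as a binding site.

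Expression is given in FPKM, a count of fragments divided by transcript length and by the size of the library, summed over the transcripts of a gene, so that levels can be compared between genes. In each list of 6 values below, the order is cKO stimulated, WT stimulated, cKO fresh, WT fresh, cKO naive and WT naive. One fragment on a 1 kb transcript was worth an estimated 0.110 to 0.143 FPKM, and the members stood on about 39.7 fragments (Egr3 in WT naive cells) to about 4265 fragments (Nr4a1 in WT fresh nTregs). The YAP label could not be checked: Yap1 was listed at 0 in both fresh nTreg and both naive libraries, and was 0.235 FPKM in cKO and 0.169 FPKM in WT stimulated nTregs. The sorts could be checked: Foxp3, which defines the Treg lineage, was 57.8, 56.9, 45.9, 46.6, 3.30 and 2.98 FPKM, and 5 T cell markers together held at least 524 FPKM in every library. Summed B cell markers were 11.1, 11.5, 39.6, 48.0, 7.51 and 7.84 FPKM, highest in fresh nTregs. Most of the fresh sum was Cd74 (26.0 and 30.6 FPKM in cKO and WT fresh nTregs, 4.26 and 4.14 in naive cells) and Cd79b (11.2 and 12.0 in fresh nTregs, 0.428 and 0.883 in naive cells). Cd79a was 0.859 and 0.722 FPKM in fresh nTregs against 1.33 and 0.785 in naive cells, and Ms4a1 and Pax5 were each at most 0.165 FPKM in every library. Xist, the RNA of the inactive X chromosome, was lower in cKO than in WT nTregs, at 3.43 and 21.1 FPKM after stimulation and 3.21 and 30.0 FPKM in fresh cells, and was 8.76 and 12.5 FPKM in naive cells. The Y-linked genes Ddx3y, Eif2s3y, Kdm5d and Uty were each at least 11.5 FPKM in every library, with Ddx3y at 45.5, 33.2, 79.0, 59.8, 64.4 and 72.9 FPKM, so every library held RNA of male cells. The labels do not give the sex of the mice, and the part of these differences in the genotype values below was not tested.

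After stimulation, in the deposited scale, all 3 NR4A genes fell, Egr2 and Egr3 rose, Nab2 fell, and neither Egr1 nor Nab1 passed the test. Populations were compared with limma on log2(FPKM + 1) over 11224 genes, in an additive model of population and genotype that leaves 2 residual degrees of freedom. With 1 library per group, its p-values measure the spread left between libraries after population and genotype, not the spread between mice. Any genotype effect that differs between populations is part of that spread, and the additive form itself was not tested. Of the 8 members, 2 were called higher and 4 lower in stimulated than in fresh nTregs, at a Benjamini-Hochberg adjusted p under 0.05. Of all genes tested, 49.8% were called in this comparison, 22.5% higher and 27.3% lower, so a call by itself says little about the members. The FPKM sum was 595524 in cKO and 534274 in WT stimulated nTregs, against 837179 to 968967 in the other libraries. Genes listed at 0 numbered 4872 and 4122, against 9110 to 10154. This difference between libraries goes with stimulation and cannot be told apart from it. With every library rescaled to an equal FPKM sum, the median of all genes in this comparison was 0.47, against -0.05 in the deposited scale. In bulk samples, fewer cells expressing a gene and less RNA of it per cell cannot be told apart.

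**Figure D1:**
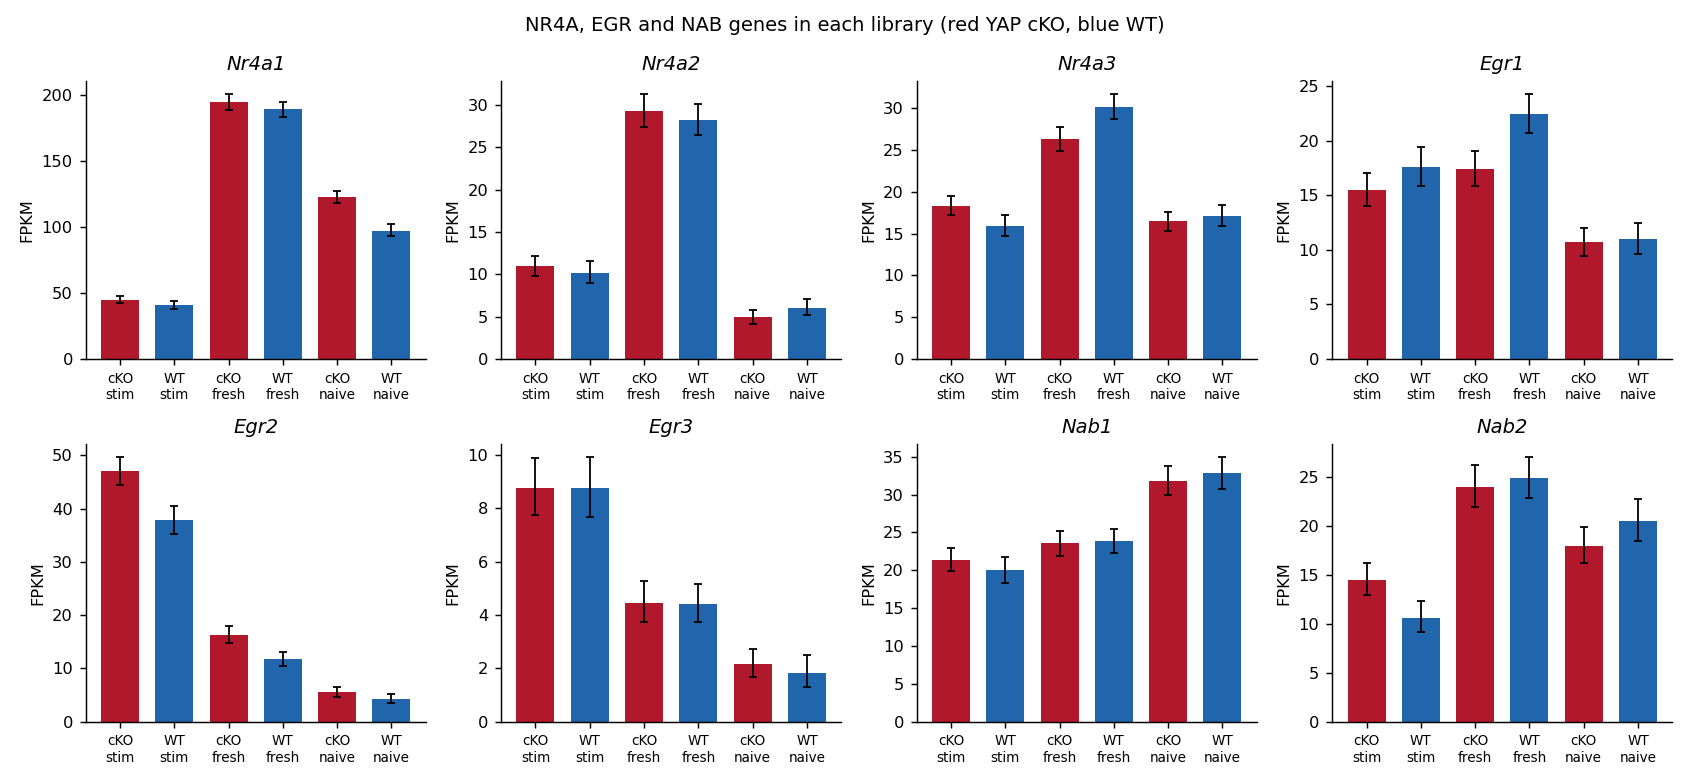
FPKM of each member (vertical axis, linear, from 0) in the 6 libraries, stimulated nTreg, fresh nTreg and naive from left to right, with YAP cKO in red left of WT in blue. Bars are single libraries and error bars are 95% Poisson intervals of the estimated fragments. Nr4a1 and Nr4a2 are highest in fresh nTregs, whereas Egr2 and Egr3 are highest in stimulated nTregs.

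Nr4a1 (chromosome 15, 101253902 to 101274795, plus strand), which encodes NUR77, was 45.0, 41.0, 194, 189, 123 and 97.3 FPKM. Both stimulated libraries lay below both naive libraries, which lay below both fresh libraries, with no overlap. Nr4a1 was lower by -2.13 ± 0.092 (log2, SE) in stimulated than in fresh nTregs (limma adjusted p = 6.96e-05) and higher by 0.81 ± 0.092 in fresh nTregs than in naive cells (adjusted p = 0.00196). The stimulated level was 0.231 of the fresh level in cKO cells and 0.217 of it in WT cells. Fresh nTregs held 1.59 times the naive level in cKO and 1.94 times in WT cells.

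Nr4a2 (chromosome 2, 57106830 to 57124003, minus strand), which encodes NURR1, was 10.9, 10.2, 29.2, 28.2, 4.91 and 6.07 FPKM. Fresh nTregs were highest and naive cells lowest, and no 2 populations overlapped. It was lower by -1.36 ± 0.12 in stimulated than in fresh nTregs (log2, SE, limma adjusted p = 0.000527), and by -0.83 under equal FPKM sums (adjusted p = 0.000911), or -1.30 relative to the shifted median. Fresh nTregs exceeded naive cells by 2.20 ± 0.12 (adjusted p = 0.000144), which was 5.96-fold in cKO and 4.65-fold in WT cells, the largest fresh to naive ratio among the 8 members in either genotype. Unlike Nr4a1, Nr4a2 thus stayed above its naive level in both stimulated libraries.

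Nr4a3 (chromosome 4, 48045078 to 48086447, plus strand), which encodes NOR1, was 18.3, 15.9, 26.3, 30.1, 16.4 and 17.1 FPKM. Both fresh libraries were the highest, and the stimulated and naive libraries overlapped. Its difference between stimulated and fresh nTregs was -0.69 ± 0.11 (log2, SE, limma adjusted p = 0.00436), and that between fresh nTregs and naive cells 0.71 ± 0.11 (adjusted p = 0.00645). The second call was lost without the WT fresh library, at 0.58 (adjusted p = 0.0690). The first became -0.14 under equal FPKM sums (adjusted p = 0.272), or -0.61 relative to the shifted median.

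Summed over the 3 NR4A genes, the level was 74.2, 67.0, 250.01, 247, 144 and 120 FPKM. Nr4a1 made up 60.6% and 61.1% of the NR4A sum in cKO and WT stimulated nTregs, 77.8% and 76.4% in fresh nTregs, and 85.2% and 80.8% in naive cells. Nr4a2 held 14.7% and 15.2% of the sum in cKO and WT stimulated nTregs, 11.7% and 11.4% in fresh nTregs, and 3.41% and 5.04% in naive cells.

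Egr2 (chromosome 10, 67534469 to 67542188, plus strand), which encodes the factor also called KROX20, was 47.0, 37.8, 16.4, 11.7, 5.53 and 4.31 FPKM. The populations ran from stimulated through fresh to naive with no overlap. Egr2 was higher by 1.54 ± 0.095 in stimulated than in fresh nTregs (log2, SE, limma adjusted p = 0.00018), a ratio of 2.88 in cKO and 3.23 in WT cells. Fresh nTregs exceeded naive cells by 1.34 ± 0.095 (adjusted p = 0.000337), a ratio of 2.96 in cKO and 2.72 in WT cells.

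Egr3 (chromosome 14, 70077317 to 70082613, plus strand), a close relative of Egr2, was 8.76, 8.75, 4.45, 4.41, 2.16 and 1.84 FPKM. Its populations ran in the same order as those of Egr2, again with no overlap, at a lower level. The difference was 0.85 ± 0.12 between stimulated and fresh nTregs (log2, SE, limma adjusted p = 0.00256) and 0.86 ± 0.12 between fresh nTregs and naive cells (adjusted p = 0.00422). Between stimulated and fresh nTregs it was 1.36 under equal FPKM sums, or 0.89 relative to the shifted median, and 1.28 with the highest transcript or the deposited symbol alone. The stimulated level was 1.97 times the fresh level in cKO and 1.99 times in WT cells.

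Egr1 (chromosome 18, 34861207 to 34864956, plus strand), an immediate early gene, was 15.5, 17.6, 17.4, 22.4, 10.7 and 11.0 FPKM. Stimulated and fresh nTregs overlapped, and both lay above naive cells. Fresh nTregs exceeded naive cells by 0.81 ± 0.11 (log2, SE, limma adjusted p = 0.00353). Between stimulated and fresh nTregs the estimate was -0.25 ± 0.11 (adjusted p = 0.109), with a 95% interval of -0.51 to 0.02. Under equal FPKM sums its sign turned to 0.30 (adjusted p = 0.0620), which is -0.17 relative to the shifted median of all genes.

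As a sum, the 3 EGR genes stood at 71.3, 64.1, 38.2, 38.6, 18.4 and 17.1 FPKM. Egr1 held the largest share of the EGR sum in naive cells, at 58.2% in cKO and 64.1% in WT. Egr2 held the largest share in stimulated nTregs, at 66.0% in cKO and 58.9% in WT. In fresh nTregs Egr1 held 45.5% and Egr2 42.8% in cKO cells, against 58.2% and 30.4% in WT cells. Egr3 stayed between 10.8% and 13.6% of the EGR sum in all 6 libraries.

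Nab2 (chromosome 10, 127660918 to 127666703, minus strand), an EGR co-repressor that is itself known as an EGR target, was 14.5, 10.6, 24.0, 24.9, 18.0 and 20.5 FPKM. Stimulated nTregs were lowest and fresh nTregs highest, with no overlap between populations. The difference between stimulated and fresh nTregs was -0.92 ± 0.15 (log2, SE, limma adjusted p = 0.00434), and -0.38 under equal FPKM sums (adjusted p = 0.0354), or -0.85 relative to the shifted median. That between fresh nTregs and naive cells was 0.33 ± 0.15 (adjusted p = 0.149), and it was called at 0.52 under equal FPKM sums (adjusted p = 0.0243) and at 0.33 when either stimulated library was left out (adjusted p = 0.0171 without cKO and 0.0165 without WT). Without cKO naive cells it was 0.15 (adjusted p = 0.612), without WT naive cells 0.51 (adjusted p = 0.104) and without WT fresh nTregs 0.25 (adjusted p = 0.501). Nab2 overlaps genes on the other strand, Nemp1 over 1668 bases, the antisense transcript Gm16229 over 1646 bases and Stat6 over 40 bases. The kit marks strand, but the strand setting of the quantification is not given in the sources used here, so reads of these genes may not have been told apart.

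Nab1 (chromosome 1, 52455849 to 52500712, minus strand), the other co-repressor, was 21.4, 20.0, 23.5, 23.8, 31.8 and 32.8 FPKM. Here the naive libraries were highest and the stimulated ones lowest, with no overlap. Nab1 was the only member called lower in fresh nTregs than in naive cells, at -0.43 ± 0.084 (log2, SE, limma adjusted p = 0.0129). This call was lost under equal FPKM sums, at -0.24 (adjusted p = 0.0949). It was also lost at adjusted p = 0.137 without cKO fresh, 0.102 without WT fresh, 0.0618 without cKO naive and 0.0998 without WT naive. Between stimulated and fresh nTregs the estimate was -0.19 ± 0.084 (adjusted p = 0.112), and under equal FPKM sums it was 0.37 (adjusted p = 0.0102), or -0.11 relative to the shifted median.

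Between fresh nTregs and naive cells, 6 members were called higher, 1 lower and 1 neither way, when 31.3% of all genes were called, 16.5% higher and 14.7% lower. All 3 NR4A and all 3 EGR genes were among the 6. Under equal FPKM sums 7 members were called higher and 0 lower, with the median of all genes at 0.15. Of 11373 genes tested under that scaling, 2767 were called higher and 667 lower. For the stimulated against fresh comparison that scaling gave 3 members higher and 3 lower. Of all genes, it gave 6724 higher and 1022 lower there. In these fresh cells B cell markers were also higher than in naive cells (39.6 and 48.0 against 7.51 and 7.84 FPKM), and their part in the differences was not tested.

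**Figure D2:**
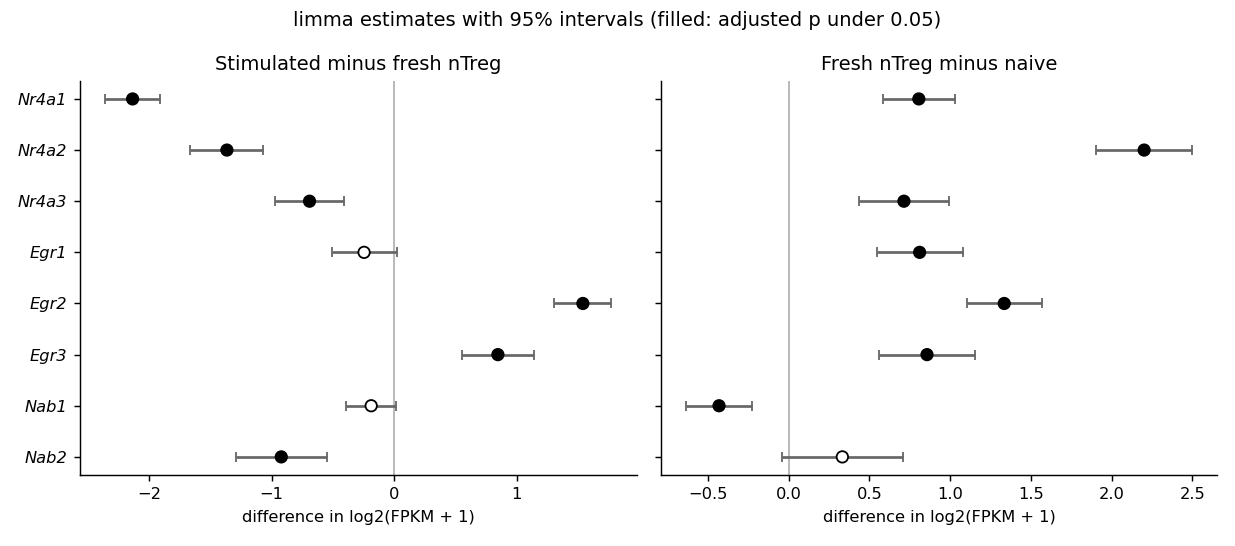
Estimated difference in log2(FPKM + 1) for each member (horizontal axis) between stimulated and fresh nTregs on the left and between fresh nTregs and naive cells on the right. Points are limma estimates, bars 95% intervals, and filled points have an adjusted p under 0.05. The EGR genes lie right of 0 in the right panel, and in the deposited scale only Egr2 and Egr3 lie right of 0 in the left panel.

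The order of the levels changed with the population. In stimulated nTregs Nr4a1 (45.0 FPKM in cKO and 41.0 in WT) and Egr2 (47.0 and 37.8) stood highest and overlapped over the 2 libraries. Nab1 followed, then Nr4a3 and Egr1, which overlapped, then Nab2 and Nr4a2, which overlapped, and Egr3 (8.76 and 8.75). In fresh nTregs Nr4a1 stood highest, at 194 FPKM in cKO and 189 in WT, followed by Nr4a2 and Nr4a3, which overlapped each other, and then by Nab2, Nab1, Egr1, Egr2 and Egr3, which did not. In naive cells the order was Nr4a1, Nab1, Nab2, Nr4a3 and Egr1, with no overlap between neighbours, then Nr4a2 and Egr2, which overlapped, and Egr3. Egr3 was thus the lowest of the 8 in every library.

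Profiles over the 6 libraries were set side by side as the root mean square distance between log2(FPKM + 1) values, each centred on its own mean. Among the 28 pairs of members, Nr4a3 and Egr1 lay closest (0.26) and Nr4a1 and Egr2 farthest apart (1.87). Among 11223 other genes, the nearest to Egr2 were the histone gene H2bc11 (0.042), the TGF-beta receptor gene Tgfbr1 (0.11) and the fatty acid binding protein gene Fabp5 (0.16). Tgfbr1 was 166, 128, 56.3, 48.9, 19.3 and 17.8 FPKM. Nearest to Nr4a1 were the histone demethylase gene Kdm6b (0.11) and the signalling adaptor genes Sh2d1a and Sla (0.16 each). Nearest to Egr3 were Furin (0.075), a proprotein convertase gene, Dpy19l4 (0.075) and Bcl2l2 (0.081). For Nr4a2 they were Nav2 (0.099), Fam43a (0.15) and Gm2897 (0.15), for Nr4a3 Ppp1r16b (0.065), 4930478L05Rik (0.073) and Lpin2 (0.076), and for Egr1 Ggt7 (0.055), Zfp937 (0.073) and Fam219a (0.074). These distances are descriptions over 6 libraries that the genes share.

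Other genes of TCR signalling did not move as one with the members, and the list counts are to be read against the 49.8% of all genes called between stimulated and fresh nTregs. Under equal FPKM sums 7746 of 11373 genes were called in that comparison, 6724 higher and 1022 lower. The list counts under that scaling are to be read against these. With every library rescaled instead by its median ratio over genes (median ratio scaling), 5552 of 11236 genes were called, 2890 higher and 2662 lower. Among 18 other immediate early and sorting response genes, 0 were called higher and 16 lower in stimulated than in fresh nTregs, with a median of -2.10, against -0.05 over all genes. Fos, which encodes a subunit of AP-1, was 4.79, 4.88, 401, 351, 318 and 222 FPKM. Its difference between stimulated and fresh nTregs was -6.01 (log2, limma adjusted p = 7.75e-06). Dusp1, a MAP kinase phosphatase gene, differed by -5.42 (adjusted p = 8.68e-07) and Fosb by -5.17 (adjusted p = 6.38e-05). These genes are also known to respond to tissue dissociation and sorting, and whether sorting contributed to the fresh and naive levels of the NR4A genes was not tested. Between fresh nTregs and naive cells 7 of the 18 were called higher and 1 lower, with a median of 0.23. Of all genes, 16.5% were called higher and 14.7% lower in that comparison.

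Among the 9 measured TCR signal strength genes, 3 were called higher and 5 lower after stimulation, with a median of -0.74. The chemokine gene Xcl1 was higher by 3.37 (limma adjusted p = 0.000982) and Myc by 1.85 (adjusted p = 0.000503), in the direction of Egr2. Gadd45b differed by -3.56 (adjusted p = 1.10e-05), Nfkbid by -2.27 (adjusted p = 5.15e-05) and Cd69 by -1.69 (adjusted p = 0.000144), in the direction of Nr4a1. Under equal FPKM sums 4 were called higher and 4 lower, and under median ratio scaling 3 and 5.

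Of the 19 measured genes that feed into Egr and Nr4a transcription, 1 was called higher and 7 lower in stimulated than in fresh nTregs, against 49.8% of all genes called, with a median of -0.17. Srf, the factor that binds CArG boxes, was 9.80, 8.97, 16.5, 16.9, 22.1 and 21.0 FPKM (-0.77, limma adjusted p = 0.00141). Nfatc1 (-0.79, adjusted p = 0.00138) and Mef2d (-0.87, adjusted p = 0.000915) were also lower, and Crem, a CRE binding factor, was higher (0.52, adjusted p = 0.0032). The counts of this list changed under equal FPKM sums, with 10 called higher and 1 lower. Its median then stood -0.08 from that of all genes, against -0.12 in the deposited scale. Under median ratio scaling 1 was called higher and 7 lower, as in the deposited scale.

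Genes linked to EGR2 and EGR3 in mouse T cells, many but not all of them negative regulators, split both ways. Of 13 measured, 3 were called higher and 8 lower after stimulation (median -0.54). Socs1 (1.17, limma adjusted p = 0.0037), Tnfrsf9, which encodes 4-1BB (0.91, adjusted p = 0.00084), and Crtam (0.83, adjusted p = 0.0185) were higher. Socs3 (-1.46, adjusted p = 0.000152), Fasl (-1.12, adjusted p = 0.00202) and the ubiquitin ligase gene Cblb (-1.06, adjusted p = 0.000669) were lower, while Egr2 and Egr3 were higher. Under equal FPKM sums 6 were called higher and 5 lower, and the median stood at 0.02. Median ratio scaling gave 3 higher and 7 lower, with a median of -0.47.

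Among 10 Treg and exhaustion genes linked to NR4A factors, 6 were called higher and 4 lower in stimulated than in fresh nTregs (median 0.58). Between fresh nTregs and naive cells 10 of 10 were called higher (median 3.003), against 16.5% of all genes. The list holds Treg markers such as Foxp3 and Il2ra, so a difference from naive cells was largely built into the sort. Il2ra, which encodes CD25 and was used in the sort, was higher after stimulation by 2.05 (limma adjusted p = 0.000613), Irf4 by 1.21 (adjusted p = 0.00029) and Pdcd1, which encodes PD-1, by 1.21 (adjusted p = 0.00314). Ctla4 (-1.15, adjusted p = 0.000354), Tox2 (-0.73, adjusted p = 0.0114) and Tox (-0.68, adjusted p = 0.00346) were lower, in the direction of the NR4A genes. Under equal FPKM sums 6 were called higher and 2 lower, and under median ratio scaling 6 and 4. Of the paralogs and RXR partners, Rxrb passed the test between stimulated and fresh nTregs (-0.29, limma adjusted p = 0.0366) and Rxra did not (-0.24, adjusted p = 0.211), while Egr4, Wt1 and Rxrg did not reach the filter.

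**Figure D3:**
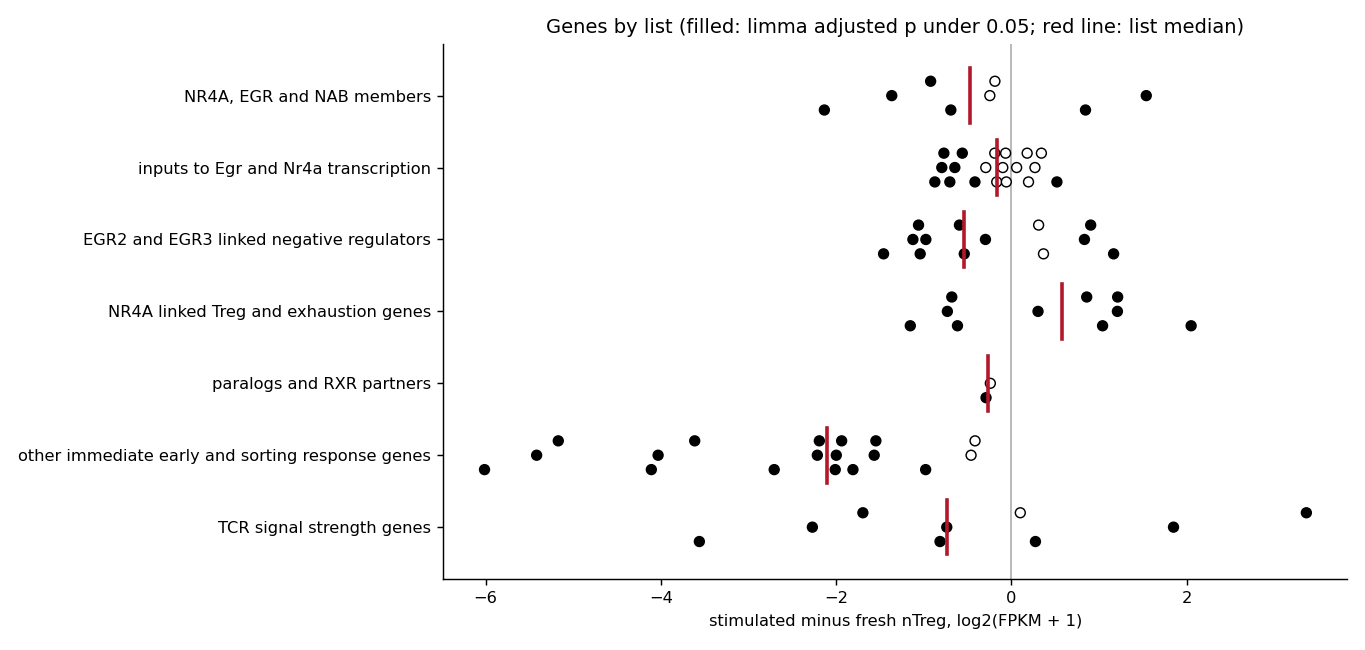
Estimated difference in log2(FPKM + 1) between stimulated and fresh nTregs (horizontal axis) for every measured gene of each list, 1 point a gene, filled where the limma adjusted p is under 0.05. Red lines are list medians, from -2.10 for the other immediate early genes to 0.58 for the NR4A linked genes.

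Between genotypes, 0 of the 8 members were called in the additive model, when 0.374% of all genes were called (42 of 11224, and 1346 at an unadjusted p under 0.05). Within a population each genotype had 1 library, so these differences have no test. At least 2-fold in FPKM + 1 separated 0 of the 8 members in stimulated nTregs, fresh nTregs and naive cells, when 1.9%, 1.03% and 1.2% of all genes were that far apart. Intervals given below for a ratio cover counting error only, from the estimated fragments.

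Egr2 was the member with the largest genotype estimate, at 0.35 ± 0.078 for cKO minus WT (log2, SE, 95% interval 0.16 to 0.54, limma adjusted p = 0.194, unadjusted p = 0.00391). It was higher in cKO in 3 of 3 populations: 47.0 against 37.8 FPKM in stimulated nTregs, 16.4 against 11.7 in fresh nTregs and 5.53 against 4.31 in naive cells. The cKO to WT ratio was 1.24 (1.14 to 1.36) in stimulated nTregs, 1.40 (1.21 to 1.62) in fresh nTregs and 1.28 (0.988 to 1.67) in naive cells. With every library rescaled to an equal FPKM sum, the difference in log2(FPKM + 1) in stimulated nTregs was 0.16, against 0.31 in the deposited scale, and it stayed above 0. Counting error alone covers a ratio of 1 in naive cells but not in nTregs. Summed NK markers were also higher in cKO nTregs, at 69.2 FPKM in cKO and 24.0 in WT after stimulation and 33.5 and 21.9 in fresh cells. They were not higher in cKO naive cells, at 22.8 and 35.6. Most of that nTreg sum was Nkg7, at 63.7 and 19.9 FPKM after stimulation and 27.8 and 15.0 in fresh cells. Ncr1, a defining NK gene, was at most 0.242 FPKM in the nTreg libraries. The other markers did not all go with Nkg7. Ncr1 and Klrb1c were lower in cKO in both nTreg populations, and Gzma and Eomes higher. Klrd1 and Prf1 were lower in cKO in fresh cells and higher after stimulation. The part of the NK markers in the Egr2 difference was not tested.

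For Nr4a1 the genotype estimate was 0.17 ± 0.075 (95% interval -0.02 to 0.35, limma adjusted p = 0.445), and 0.086 when either naive library was left out (adjusted p = 0.770 without cKO and 0.772 without WT). The gap was widest in naive cells, at 123 FPKM in cKO and 97.3 FPKM in WT, a ratio of 1.26 (1.19 to 1.34). In fresh nTregs the ratio was 1.03 (0.986 to 1.07), and after stimulation 1.10 (0.997 to 1.21). The difference in log2(FPKM + 1) after stimulation was -0.02 under equal FPKM sums, against 0.13 in the deposited scale. Fos (318 FPKM in cKO and 222 in WT) and Dusp1 (151 and 118) were also higher in the cKO naive library, with no test. Their list of immediate early and sorting response genes had a median difference of 0.14 there, over 16 measured genes. Fosl2 (-0.20), Klf6 (-0.11), Ier5 (-0.045) and Jun (-0.0028) lay below 0. Dusp1 was higher in cKO nTregs too, by 0.33 in fresh and 0.37 in stimulated cells.

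Egr1 ran the other way in nTregs, at 17.4 FPKM in cKO and 22.4 FPKM in WT fresh cells, a ratio of 0.775 (0.686 to 0.874), and 15.5 and 17.6 FPKM after stimulation, a ratio of 0.882 (0.767 to 1.01). In naive cells it was 10.7 and 11.0 FPKM, a ratio of 0.974 (0.820 to 1.16). The estimate over populations was -0.19 ± 0.089 (log2, SE, limma adjusted p = 0.473). In fresh nTregs Egr1 and Egr2 were thus close in cKO (17.4 and 16.4 FPKM) and further apart in WT (22.4 and 11.7).

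Nab2 was higher in the cKO library of stimulated nTregs, at 14.5 FPKM against 10.6 FPKM in WT, a ratio of 1.36 (1.13 to 1.64). As a difference in log2(FPKM + 1) this was 0.41, against 0.15 with the highest transcript of the gene and 0.27 under equal FPKM sums. It was not higher in fresh nTregs (24.0 and 24.9 FPKM, ratio 0.965) or naive cells (18.0 and 20.5 FPKM, ratio 0.877). Its estimate over populations was 0.06 ± 0.12 (limma adjusted p = 0.874). The fall on stimulation was -0.69 in cKO and -1.15 in WT cells, a difference of 0.46 over summed transcripts and 0.13 with the highest transcript. Both are short of 2-fold, a distance that 1.82% of all genes reached over summed transcripts. Nr4a3 had -0.50 in cKO and -0.88 in WT cells, a difference of 0.38. These differences of the response have no test, because no residual degrees of freedom remain.

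Over summed transcripts, the genotype estimates of the other 4 members lay closer to 0. Nr4a2 had an estimate of -0.04 (95% interval -0.28 to 0.20, limma adjusted p = 0.906), Nr4a3 of -0.02 (-0.24 to 0.21, adjusted p = 0.960), Egr3 of 0.06 (-0.19 to 0.30, adjusted p = 0.854) and Nab1 of 0.01 (-0.16 to 0.18, adjusted p = 0.962). A 2-fold difference in FPKM + 1 lies outside each of these intervals. They are for the estimate over populations, and do not cover a single population or the spread between mice. With the highest transcript the Nr4a2 estimate was -0.33. In naive cells the Nr4a2 ratio of cKO to WT was 0.808 (0.645 to 1.01). Its difference in log2(FPKM + 1) there was -0.26, and -0.79 with the highest transcript. Egr3 in fresh nTregs differed by 0.01 over summed transcripts and by -0.99 with the highest transcript. Of the lists described above, each had 0 genes called between genotypes. Single list genes were 2-fold apart in 1 population without a test, such as Crtam in stimulated nTregs (5.68 FPKM in cKO and 2.20 in WT) and Hspa1a in fresh nTregs (11.9 and 4.39).

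**Figure D4:**
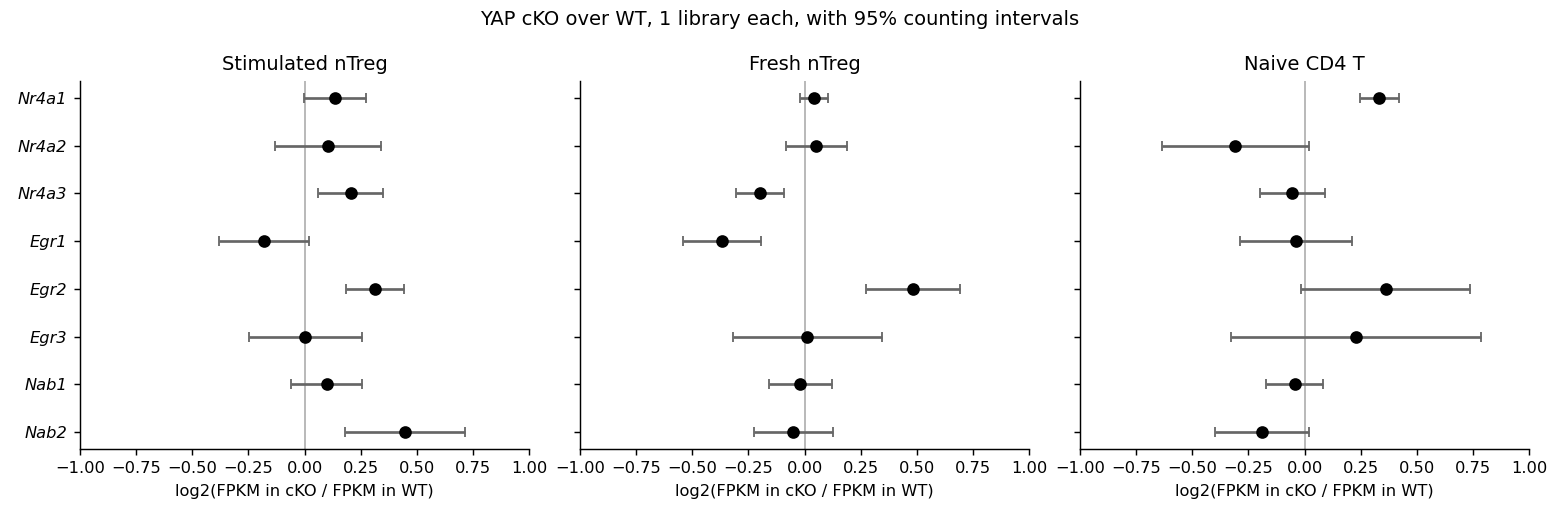
Log2 ratio of FPKM in cKO over WT for each member (horizontal axis) in stimulated nTregs, fresh nTregs and naive cells from left to right. Points are ratios of 2 single libraries and bars are 95% counting intervals. Egr2 lies right of 0 in all 3 panels, and Nr4a3 lies left of 0 in fresh nTregs and right of it in stimulated nTregs.

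Egr3 shows how the level of a gene depends on which transcripts are counted. The deposited symbol Egr3 stands on 1 of its 3 transcripts, and the other 2 carry no deposited symbol and were named from RefSeq. The transcript with the symbol was 6.76, 8.75, 1.55, 4.06, 2.16 and 1.09 FPKM, so that in fresh nTregs it was lower in cKO than in WT. Over all 3 transcripts Egr3 was 4.45 FPKM in cKO and 4.41 FPKM in WT fresh nTregs, a ratio of 1.01 (0.801 to 1.27). With the deposited symbol alone the genotype estimate turned from 0.06 to -0.24 (limma adjusted p = 0.771), and the difference between fresh nTregs and naive cells was 0.48 (adjusted p = 0.331) and no longer called. The split between transcripts also moved for Nr4a2, whose NM_013613 transcript held 39.1% and 18.1% of the gene in cKO and WT stimulated nTregs, 15.1% and 17.2% in fresh nTregs, and 47.6% and 14.8% in naive cells. For Nab2 the NM_008668 transcript held 40.1% and 27.2% in stimulated nTregs, 25.8% and 29.1% in fresh nTregs, and 31.8% and 28.2% in naive cells. These splits are estimates from short reads with no replicates and have no test.

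**Figure D5:**
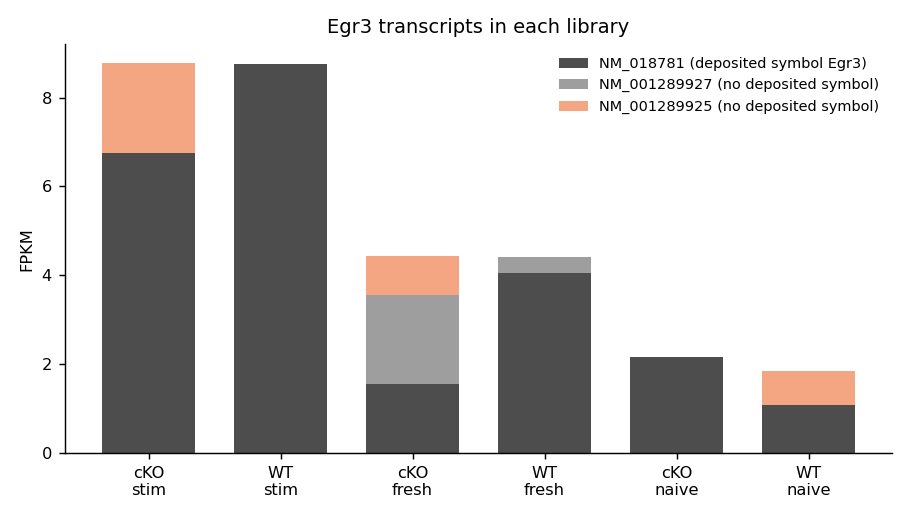
FPKM of the 3 Egr3 transcripts (vertical axis, linear, from 0), stacked by library, with cKO left of WT in stimulated nTregs, fresh nTregs and naive cells. The stacks of the genotypes are close in fresh nTregs (4.45 FPKM in cKO and 4.41 in WT), while the transcript with the deposited symbol holds 1.55 and 4.06 FPKM of them.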

How the data were processed

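The authors deposited FPKM values per RefSeq transcript for the 6 libraries, 1 per group. Per the submitters' processing notes, FastQC, TopHat, Cuffdiff and Cuffnorm were used with the mm10 build. Versions are not given in the sources used here. Per the labels' protocols, stranded libraries were made after ribosomal RNA depletion from 322 ng of RNA with 12 PCR cycles. FPKM carries no counts and depends on the other RNA in the library. Columns named YKP were read as YAP cKO by elimination, since the others are named WT.

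The 32547 transcripts were named by RefSeq (32101) or by their deposited symbol (397), with 49 unnamed, and summed per gene. Genes with at least 1 FPKM in at least 2 libraries were fitted with limma 3.58.1 in R 4.3.3 on log2(FPKM + 1), population plus genotype with an intensity trend. The model was also run on simulated data, with levels and spread taken from this fit. Those data held no genotype effect that differed between populations, so they cannot check the additive form. A pseudocount of 1 understates folds of low genes. Within a population, log2(FPKM + 1) differences over genes with at least 1 FPKM in either library carry no test. Depth was estimated from the steps between low values, of which 69.5% to 76.9% were whole fragments within 0.1, so counting intervals are approximate, cover counting error only and ignore how reads were split between transcripts. The members and lists were chosen with earlier results of these data known. The rule for named genes took all members and, from each list, up to 3 genes of each sign with the largest stimulated against fresh estimates and the largest genotype differences, of which a selection is named here. Xist and the Y-linked genes were added after values were seen.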

Additional observations from a re-analysis of the deposited data

Results flagged for a closer look

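Nr4a3 stood out because its genotype difference ran in opposite directions in the 2 nTreg populations. The log2 ratio of cKO over WT was -0.20 in fresh nTregs (26.3 FPKM in cKO and 30.1 in WT) and 0.21 in stimulated nTregs (18.3 and 15.9), and both counting intervals exclude 0. With every library rescaled to an equal FPKM sum, the differences in log2(FPKM + 1) were -0.20 in fresh and 0.05 in stimulated nTregs, against -0.19 and 0.19 in the deposited scale. Each value compares 2 single libraries, and the difference between the populations was not tested.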

How the results depend on the processing

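No paired analysis was possible because each group has 1 library. Results were recomputed with a pseudocount of 0.1, no filter or at least 5 FPKM, equal FPKM sums, median ratio scaling, the highest transcript of each gene, limma without a trend and each library left out, and, chosen after seeing the data, with deposited symbols only. Under all of these, Nr4a1, Nr4a2, Egr1 and Egr2 kept their calls between fresh nTregs and naive cells, and Nr4a1, Nr4a2, Egr2, Egr3 and Nab2 kept theirs between stimulated and fresh nTregs. No member was called between genotypes under any of them. Without 1 library, the genes called numbered 2903 (WT fresh left out) to 5408 between stimulated and fresh nTregs, with 3022 when cKO fresh was left out and 5588 with all libraries. Between fresh nTregs and naive cells they numbered 1286 (cKO fresh left out) to 4788, with 1379, 1840 and 1912 when WT fresh, cKO naive and WT naive were left out, against 3508 with all libraries and 2183 with no filter. Between genotypes they numbered 16 (either fresh library left out) to 105 (cKO stimulated left out), with 99 and 75 when WT stimulated and WT naive were left out, against 42 with all libraries, 4 with no filter and 12 with the highest transcript.

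Genes at least 2-fold apart between genotypes numbered 211 in stimulated nTregs, 112 in fresh nTregs, 125 in naive cells and 210 for the stimulation response. A pseudocount of 0.1 gave 494, 275, 274 and 607 in that order, and the highest transcript 350, 195, 223 and 455. With at least 5 FPKM the counts were 72 in naive cells and 104 for the response, and equal FPKM sums gave 329 for the response. Equal FPKM sums also moved the share of calls that were higher to 86.8% between stimulated and fresh nTregs, against 45.2% in the deposited scale, and to 80.6%, against 52.8%, between fresh nTregs and naive cells. For genotype, that share moved to 38.2%, against 63.5%, in stimulated nTregs and to 28.3%, against 47.6%, for the response.

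Signs turned for Egr1 (0.30) and Nab1 (0.37) between stimulated and fresh nTregs under equal FPKM sums. Genotype estimates near 0 turned too: Egr3 to -0.24 with the highest transcript or deposited symbols, Nab2 to -0.029 with the highest transcript, and Nab1 to -0.040 with equal FPKM sums and -0.0030 with median ratio scaling. The Nr4a2 estimate kept its sign and moved from -0.039 to -0.33 with the highest transcript. With 1 library left out, genotype estimates ran from -0.11 to 0.072 for Nr4a2, -0.12 to 0.071 for Nr4a3, -0.030 to 0.038 for Nab1 and -0.11 to 0.18 for Nab2. The causes of these changes were not tested. Depth limits Egr3 most, since it stood on about 39.7 fragments in WT naive cells.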
